A study of Mus musculus with 13 samples.

Results

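The genes carried by the mitochondrial DNA were examined in RNA from 13 mouse NUT carcinoma (mNC) tumors. Members were all genes whose mouse symbol starts with mt-, and these were 37 of the 55332 genes with values. They comprised 13 mRNAs, 2 rRNAs and 22 tRNAs. The tumors arose in mice with the NCT allele, in which Cre recombinase triggers a rare chromosomal translocation. All 4 groups carried 1 copy of this allele (NCT+/-). The 4 oral Sox2 WT tumors came from KRT14-Cre; NCT+/- mice. The 2 oral Sox2 KO tumors also carried Sox2fl/fl, and their label gives the driver as KRT4Cre where the study's methods name KRT14-Cre. The 4 pancreatic WT tumors came from Pdx1-Cre; NCT+/- mice, and the 3 pancreatic KO tumors carried homozygous floxed Sox2 in addition. Ages of the mice were not given in the sources used here. Each library was made from bulk tumor tissue, so that tumor cells and other cells of a mass were read together. Fewer mitochondria-rich cells and less mitochondrial RNA per cell could not be told apart.

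Mitochondrial DNA is a small circle present in many copies per cell. It encodes subunits of complexes I, III and IV of the respiratory chain and of ATP synthase, together with the rRNAs and tRNAs of the mitochondrial ribosome's translation system. Both strands are transcribed by the polymerase Polrmt as long precursors, which are cut where the tRNAs lie between the other genes. The nuclear genome supplies all other subunits, the transcription factors and the RNA-processing enzymes. Nuclear chromosomes also hold inserted stretches of mitochondrial DNA, and RNA reads from a recent insertion cannot be told from those of the mitochondrial gene itself.

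On GRCm38, 28 of the 37 genes lay on the plus strand of chromosome M and 9 on the minus strand, the latter being mt-Nd6 and 8 tRNAs. The genes were packed closely, and 9 neighbouring pairs overlapped by 1 to 43 bases. The longest overlap was that of mt-Atp8 and mt-Atp6, both subunits of ATP synthase. It is shown in capitals at the end of mt-Atp8 (chrM:7910-7969, plus strand, GENCODE M21), because reads inside it fit both genes.
mt-Atp8: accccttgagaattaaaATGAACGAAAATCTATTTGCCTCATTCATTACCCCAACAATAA
The mRNAs were poor in G and C, from 31.9% in mt-Atp8 to 41.1% in mt-Nd4l.

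The count table also held 13 nuclear genes that shared at least 50 sense sequences of 31 bases with a mitochondrial gene. Of these, 7 lay side by side on the minus strand of chromosome 1, within 4663 bases from 24611535 to 24616197, and held at least 99.8% of the copies' counts in each tumor. Over this block, 5 copies matched their mitochondrial gene with 0 differences over all aligned bases. These were Gm28661 (681 bases of mt-Co2), Gm28437 (783 of mt-Co3), Gm10925 (678 of mt-Atp6), Gm10222 (294 of mt-Nd4l) and Gm28439 (the first 876 of mt-Nd4). Gm29216 matched the last 492 bases of mt-Co1 with 6 differences. Gm28438 matched 345 bases of mt-Nd3 with 1 difference, T3C, counted from 1 at the first base of mt-Nd3, which is position 9461 of chromosome M.

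The starts of mt-Nd3 (chrM:9459-9508, plus strand) and Gm28438 (chr1:24613070-24613119, minus strand) are shown with this base in capitals. They are shown because the log2 fold change of mt-Nd3 below differed between its own row and both rows summed.
mt-Nd3: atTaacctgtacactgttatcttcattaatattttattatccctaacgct
Gm28438: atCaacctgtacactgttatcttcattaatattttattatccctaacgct
At the other end, the mitochondrial gene (chrM:9767-9806) ran 3 bases past the copy (chr1:24612775-24612811), shown in capitals.
mt-Nd3: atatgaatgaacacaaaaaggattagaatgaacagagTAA
Gm28438: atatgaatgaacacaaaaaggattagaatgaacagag
Of the 318 distinct 31-base sequences of mt-Nd3, only 6 were absent from the copies. The end of mt-Co3 (chrM:9351-9390) differed from its copy (chr1:24613189-24613227) by 1 added base.
mt-Co3: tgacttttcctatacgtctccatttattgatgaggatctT
Gm28437: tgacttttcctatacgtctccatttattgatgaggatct
Only 1 sequence of 31 bases was particular to mt-Co3, 3 each to mt-Atp6 and mt-Nd4l, and 0 to mt-Co2. In all, 7 of the 13 mRNAs shared over 50% of their sequences with nuclear genes. The other 6 (mt-Nd1, mt-Nd2, mt-Atp8, mt-Nd5, mt-Nd6 and mt-Cytb) shared under 20%. Every comparison was therefore fitted for the rows as deposited and, for genes with a copy, for the sum of the mitochondrial row and its copies. For some of these genes the text gives only the summed value.

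Estimated counts, rounded to whole numbers, totalled 11735031 to 120482588 per tumor. Both oral KO libraries were smaller than all oral WT libraries, and all pancreatic KO libraries were larger than all pancreatic WT libraries, so that depth and genotype cannot be told apart within a tissue. The labels were checked with Sox2, which had 0 and 1 counts in the oral KO tumors, 0, 1 and 2 in the pancreatic KO tumors, and 410 to 1487 in the WT tumors. Oral KO 1 stood apart, with 59.5% of its counts in protein-coding genes against 84.5 to 91.7% in the other 12 tumors, and 16.6% in Rn7s1 and Rn7s2 against 1.97 to 6.001%. Skeletal muscle is rich in mitochondria, and its 12 markers summed to 5664 and 3105 CPM (counts scaled to a common library size) in oral KO 1 and oral KO 2. They summed to 571 CPM in oral WT 4 and 5.79 to 8.52 CPM in the other oral WT tumors. Ttn alone gave 4127 CPM in oral KO 1, 2535 CPM in oral KO 2 and 326 CPM in oral WT 4. In the oral comparison below, all 12 had positive log2 fold changes (median 4.36). By the thresholds given there 2 were called up, Pvalb and Myh4, where 8.81% of all genes were. No muscle marker was at 0 throughout a group. All 10 squamous markers were detected in every group, with summed levels of 5779 to 12324 CPM in oral and 14535 to 24965 CPM in pancreatic tumors. In the pancreatic tumors the muscle markers summed to 3.18 to 5.66 CPM.

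The 13 mRNAs together took a few percent of all counts in every tumor, and the groups overlapped. In oral WT tumors they held 4.71, 3.62, 4.08 and 4.69% of the counts (mean 4.28% ± 0.526 SD, n = 4). In the oral KO tumors they held 3.52 and 7.29% (5.40% ± 2.67, n = 2), values that lay below and above all oral WT tumors. This depended on the denominator. Of the protein-coding counts alone they made up 5.91 and 8.64% in oral KO and 4.03 to 5.30% in oral WT tumors. By that measure both oral KO tumors lay above all oral WT tumors. In pancreatic WT tumors they held 9.20, 5.02, 5.12 and 4.47% (5.95% ± 2.18, n = 4), and in pancreatic KO tumors 5.48, 3.92 and 3.69% (4.37% ± 0.975, n = 3). Pancreatic WT 1 held the largest share of the 13 tumors. The nuclear copies added 0.632 to 1.87 percentage points. With them the shares were 4.57 to 5.50% in oral WT, 5.14 and 8.78% in oral KO, 5.44 to 11.1% in pancreatic WT and 4.40 to 6.42% in pancreatic KO tumors. The exact (Clopper-Pearson) 95% intervals reached at most 0.0113 percentage points to either side of the shares without copies and 0.0126 to either side of those with copies, covering counting error only. The differences between tumors of 1 group were far larger than that.

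The rRNAs mt-Rnr1 and mt-Rnr2, the small and large rRNAs of the mitochondrial ribosome, held less than the mRNAs in 12 of the 13 tumors. The libraries were depleted of rRNA before sequencing, and how much mitochondrial rRNA this removed was not measured. They held 0.687, 0.413, 0.662 and 1.12% of counts in oral WT tumors, 3.75% in oral KO 1 and 0.758% in oral KO 2. The value of oral KO 1 was the highest of the 13, and that of oral KO 2 lay within the oral WT range. Pancreatic WT tumors held 0.83, 0.525, 0.472 and 0.465%, and pancreatic KO tumors 0.974, 0.351 and 0.245%, which overlapped.

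**Figure D1:**
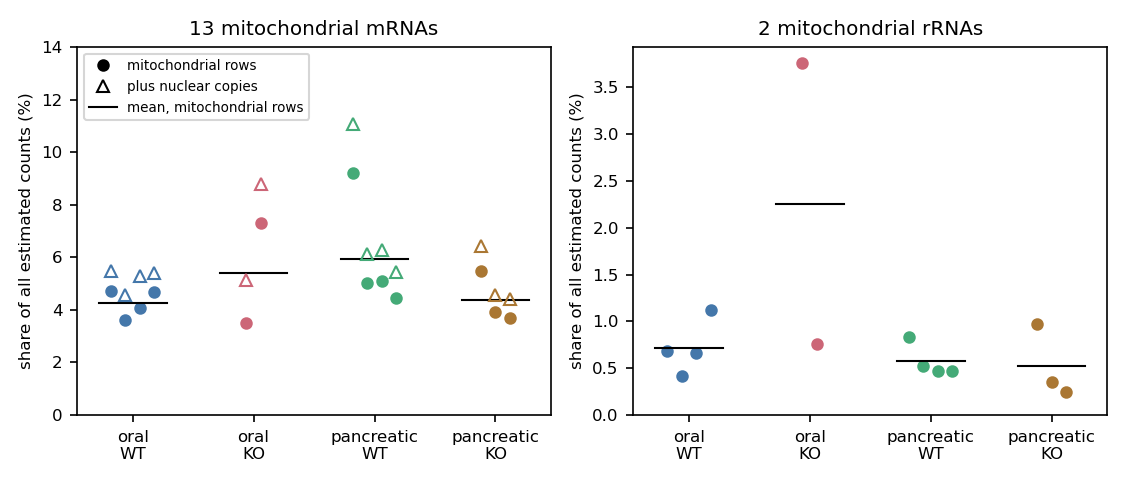
Share of all estimated counts (%, y axes) held by the 13 mitochondrial mRNAs (left) and the 2 rRNAs (right) in each tumor, by group (x axes). Filled points are the mitochondrial rows, open triangles add the nuclear copies, and lines are group means; the groups overlap for the mRNAs, and oral KO 1 stands at 3.75% for the rRNAs.

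Levels were compared between genes as CPM per kb, with copies summed. In each tumor, the most abundant of the 13 mRNAs was mt-Atp6, mt-Co1 or mt-Co3, and the highest and lowest mRNA differed 8.02-fold to 53.4-fold. mt-Co1, the catalytic core subunit of complex IV, averaged 8313 ± 713 CPM per kb (SD, n = 4) in oral WT and 15804 ± 5998 (n = 4) in pancreatic WT tumors. mt-Atp6, part of the proton channel of ATP synthase, averaged 9416 ± 1126 and 14133 ± 4948 in the same groups. The ranges of these 2 genes overlapped in every group.

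mt-Nd6, the complex I subunit that is the sole mRNA on the minus strand, was the lowest mRNA in 12 of 13 tumors. In pancreatic KO 1, mt-Nd3 was lower. mt-Nd6 averaged 688 ± 222 CPM per kb in oral WT, 774 ± 752 in oral KO, 1640 ± 986 in pancreatic WT and 994 ± 653 in pancreatic KO tumors. Expressed as a percentage of the median of the 12 plus-strand mRNAs, it stood at 22.6, 18.1, 12.4 and 22.6% in oral WT tumors. The 2 oral KO tumors stood at 4.52 and 31%. In pancreatic WT tumors it stood at 35.1, 26.8, 29.0 and 22.4%, and in pancreatic KO tumors at 30.3, 25.2 and 15.1%. Oral KO 1 had the lowest value of all. When genes were ordered by mean log2 level, the ranges of neighbours overlapped at every step in the oral WT, pancreatic WT and pancreatic KO tumors. In the 2 oral KO tumors 3 steps were apart, those after mt-Co2, mt-Atp8 and mt-Nd2.

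**Figure D2:**
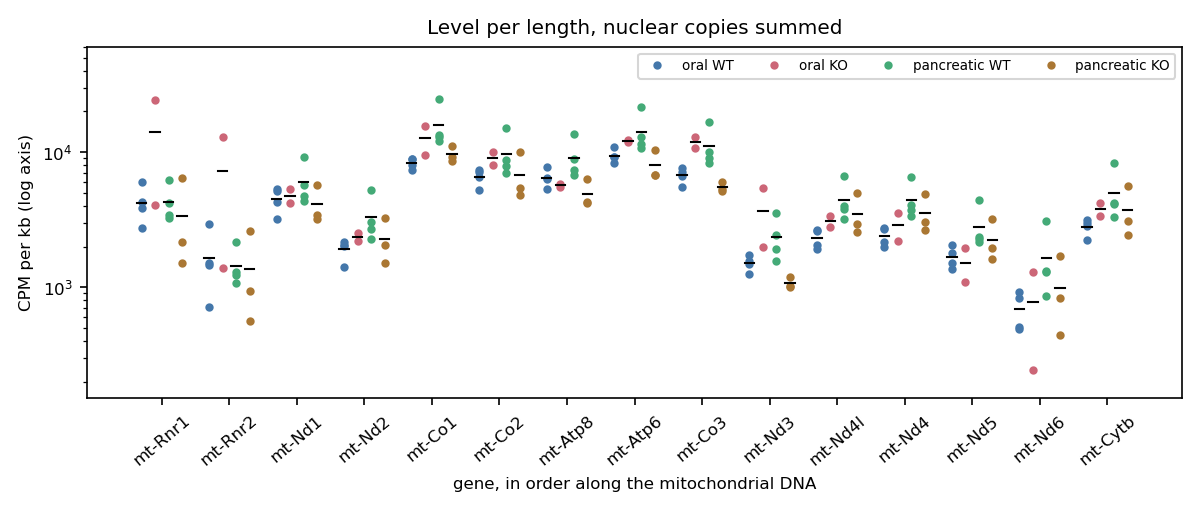
CPM per kb (y axis, log scale) of the 2 rRNAs and 13 mRNAs in the order of the mitochondrial DNA (x axis), copies summed, with 1 point per tumor and lines for group means. mt-Co1, mt-Atp6, mt-Co3 and mt-Co2 stand near the top of the mRNAs and mt-Nd6 at or near the bottom in each group.

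The division of reads between a mitochondrial gene and its copies differed by gene and by tumor. mt-Co1 kept 94.0 to 99.0% of its summed count under the mitochondrial row. For mt-Nd2, mt-Nd5, mt-Nd4l and mt-Cytb the copies held almost none, and Gm10222, the copy of mt-Nd4l, was listed at 0 in all 13 tumors. mt-Co2, the complex IV subunit that receives electrons from cytochrome c, kept only 6.06 to 20.8%, with the rest under Gm28661. mt-Co3, another core subunit of complex IV, kept 24.3 to 60.7%, the rest being listed under Gm28437. mt-Atp6 kept 98.2% or more in every pancreatic tumor but 98.3, 84.4, 60.7 and 99.6% in oral WT and 59.6 and 87.1% in oral KO tumors. Gm28439 was at 0 in 11 tumors but took 5943 counts in oral WT 4 and 107159 in pancreatic KO 1, where mt-Nd4 kept 86.2%.

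mt-Nd3, a small membrane subunit of complex I, was divided most unevenly. Its row kept 7.13, 8.15, 8.74 and 6.09% of the summed count in oral WT tumors, 3.70, 3.16, 2.96 and 5.39% in pancreatic WT tumors and 5.34, 5.79 and 5.80% in pancreatic KO tumors. In the oral KO tumors it kept 41.8 and 95.6%. Both oral KO tumors therefore lay apart from the other 11, which did not exceed 8.74%.

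**Figure D3:**
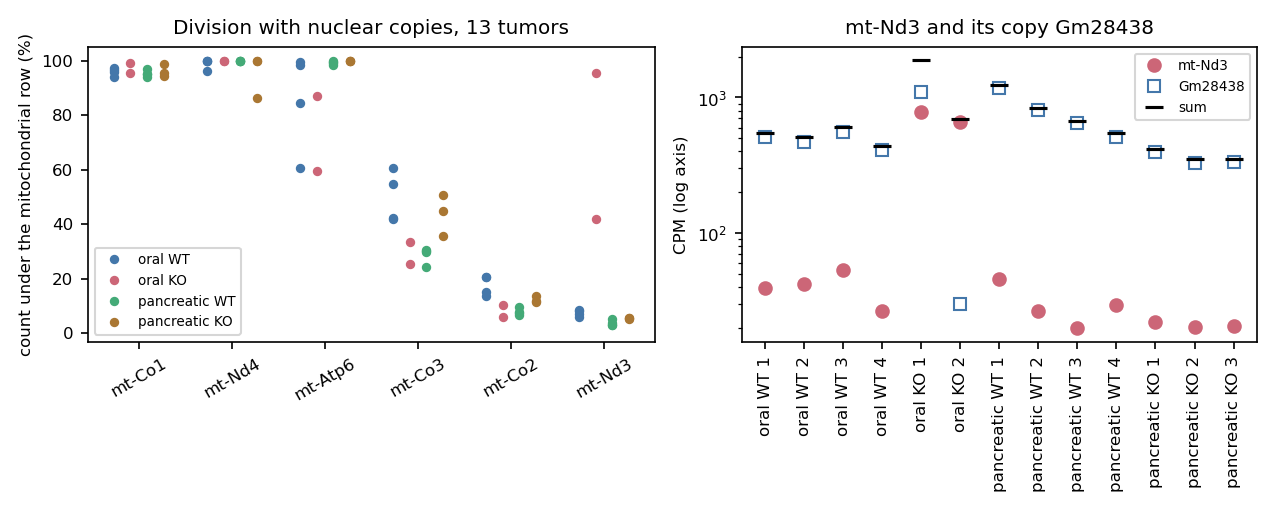
Left: percentage (y axis) of the summed count listed under the mitochondrial row for 6 genes (x axis), with 1 point per tumor. Right: CPM (y axis, log scale) of mt-Nd3, its copy Gm28438 and their sum in the 13 tumors (x axis); the mt-Nd3 row reaches 785 CPM in oral KO 1 and 659 CPM in oral KO 2 but at most 53.1 CPM elsewhere, and Gm28438 is lowest in oral KO 2 (30.1 CPM).

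Oral KO and WT tumors were compared to ask how the loss of Sox2 changes expression in oral mNC. A gene was called at an adjusted p under 0.05 (edgeR, quasi-likelihood test) and an absolute log2 fold change above 1. Of the 37 members 18 passed the filter on low counts, and 1 was up-regulated and 0 down-regulated, where 8.81% of all 22342 genes tested were called up and 2.89% down. At an unadjusted p under 0.05, 3 members passed, beside 35.4% of all genes, and DESeq2 called 3 up, where it called 11.7% of all genes up and 6.26% down. The shares over all genes rested on single tumors and on the genes fitted. In all, 1968 genes were up and 646 down, but 25 and 23 without oral KO 1, 97 and 31 without oral KO 2, 43 and 27 without oral WT 1, 19 and 17 without oral WT 2, 912 and 302 without oral WT 3, 43 and 22 with the tumor number as a block, and 19 and 8 with protein-coding genes only. The called gene was mt-Nd3. Its row held 39.1, 41.8, 53.1 and 26.6 CPM in oral WT tumors and 785 and 659 CPM in oral KO tumors, so that the groups were far apart (log2 fold change 4.25, SE 0.29, adjusted p = 0.00471, edgeR). The copy Gm28438 held 509, 471, 554 and 410 CPM in oral WT tumors, 1093 CPM in oral KO 1 and 30.1 CPM in oral KO 2, and was not called (0.31, SE 1.05, adjusted p = 0.855, edgeR).

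With both rows summed, mt-Nd3 held 548, 513, 607 and 437 CPM in oral WT tumors, against 1878 CPM in oral KO 1 and 689 CPM in oral KO 2. The KO tumors were still above all WT tumors, oral KO 2 by little. The log2 fold change was then 1.38 (SE 0.38, adjusted p = 0.0537, edgeR) and no member was called, where 8.82% of all genes were up and 2.9% down. At an unadjusted p under 0.05, 4 of 18 members passed in this fit, beside 35.4% of all genes. DESeq2, which called 11.6% of all genes up in this fit, called the summed mt-Nd3 (1.32, adjusted p = 0.0132), as did edgeR without oral KO 2 (1.95, adjusted p = 0.0462). Without oral KO 1 the value was 0.45. The row as deposited was called without either KO tumor.

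Most other mRNAs of the oral KO tumors were not far from WT. As deposited, 10 of 13 had positive log2 fold changes, with a median of 0.24, and with copies summed 11 of 13 did, with a median of 0.44, beside -0.003 over all genes in both fits. The 2 that stayed negative were mt-Atp8 (-0.11) and mt-Nd5 (-0.07). In the summed fit 8 of the 18 members tested (44.4%) had both KO tumors above all 4 WT tumors and 0 had them below. As deposited these were 5 (27.8%) and 0, where 22.4 and 25.5% of all genes tested lay so. The 8 were mt-Nd2, mt-Co1, mt-Co2, mt-Atp6, mt-Co3, mt-Nd3, mt-Nd4l and mt-Cytb.

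Among the genes of complex IV, mt-Co3 summed held 5258, 5965, 5559 and 4299 CPM in oral WT and 10133 and 8376 CPM in oral KO tumors. The groups did not overlap, but the gene was not called (0.89, SE 0.27, adjusted p = 0.0657, edgeR). Its copy Gm28437 taken alone was called (1.37, SE 0.35, adjusted p = 0.0442, edgeR), while the mt-Co3 row alone moved by 0.14 (SE 0.23). mt-Co2 changed direction with the rows used, from -0.62 (SE 0.33) as deposited to 0.54 (SE 0.28) summed, and was not called either way. mt-Co1 held 12468, 11453, 13707 and 13748 CPM summed in oral WT and 14741 and 24234 CPM in oral KO tumors (0.67, SE 0.31, adjusted p = 0.169, edgeR).

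mt-Cytb, the mitochondrial subunit of complex III, had a log2 fold change of 0.52 (SE 0.26, adjusted p = 0.202, edgeR), and for mt-Atp6 summed it was 0.44 (SE 0.27). The values of the other complex I genes lay between -0.07 for mt-Nd5 and 0.48 for mt-Nd4l. mt-Nd6 was 433, 255, 263 and 478 CPM in oral WT tumors but 126 CPM in oral KO 1 and 678 CPM in oral KO 2, on either side of the WT tumors. Its interval of 2 SE around 0.23 ran from -0.99 to 1.45, so that the sign of a change was not resolved in these 6 tumors.

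The rRNAs had large but uneven differences. mt-Rnr1 held 3673, 2607, 4101 and 5720 CPM in oral WT tumors, 23138 CPM in oral KO 1 and 3860 CPM in oral KO 2 (1.84, SE 0.65, adjusted p = 0.0953, edgeR). mt-Rnr2 held 2382, 1130, 2303 and 4656 CPM in oral WT tumors, 20577 CPM in oral KO 1 and 2181 CPM in oral KO 2 (2.22, SE 0.85, adjusted p = 0.118, edgeR). In both cases oral KO 1 was high and oral KO 2 lay within the WT range. DESeq2 called both, with adjusted p of 0.0233 and 0.0248. Without oral KO 1 the log2 fold changes were -0.01 and -0.21. The part that the low protein-coding share of this library or its muscle markers have in these values was not tested.

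Pancreatic KO and WT tumors were compared for the same purpose in the pancreas. The 13 mRNAs were lower in KO than in WT tumors on average, but 0 of the 20 members tested were called by edgeR, where 0.337% of all 24653 genes were called up and 0.292% down. At an unadjusted p under 0.05, 3 members passed as deposited, beside 15.9% of all genes, and 6 with copies summed, beside 16.2%. As deposited DESeq2 called 1 down, mt-Tp, where it called 1.58% of all genes up and 2.94% down. The median log2 fold change of the mRNAs was -0.52 as deposited, with 12 of 13 negative, and -0.54 with copies summed, with all 13 negative, against 0.02 and 0.03 over all genes. In the summed fit 6 of 20 members (30%) had all 3 KO tumors below all 4 WT tumors. As deposited there were 4 of 20 (20%), where 8.77% of all genes tested lay so, and 0 had them above, where 6.81% did. The share over all genes was taken for the rows as deposited only. The members were read from the same libraries and are not independent.

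Among the mRNAs the largest differences were those of mt-Nd3 and mt-Co3 with copies summed. mt-Nd3 held 1228, 842, 670 and 544 CPM in pancreatic WT and 416, 350 and 354 CPM in pancreatic KO tumors (-1.12, SE 0.28, adjusted p = 0.109, edgeR). mt-Co3 held 13198, 7891, 7144 and 6458 CPM in WT and 4713, 4012 and 4204 CPM in KO tumors (-0.996, SE 0.28, adjusted p = 0.138, edgeR). In both genes every KO tumor was below every WT tumor, and DESeq2 called both in the summed fit (-1.13, adjusted p = 0.0047, and -1.002, adjusted p = 0.00962). As deposited the differences were smaller, -0.52 (SE 0.26) for mt-Nd3 and -0.40 (SE 0.32) for mt-Co3.

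The subunits of ATP synthase followed. mt-Atp8 held 2756, 1804, 1497 and 1380 CPM in WT and 1286, 872 and 853 CPM in KO tumors (-0.88, SE 0.28, adjusted p = 0.180, edgeR). mt-Atp6 summed held 14598, 8753, 7853 and 7293 CPM in WT and 7030, 4592 and 4641 CPM in KO tumors (-0.82, SE 0.30). mt-Co1 summed held 38246, 20836, 20009 and 18578 CPM in WT and 17168, 14168 and 13350 CPM in KO tumors (-0.70, SE 0.30). Each of these 3 genes also had all KO tumors below all WT tumors. Within the groups, WT 1 was the highest WT tumor and KO 1 the highest KO tumor for all 3.

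The remaining complex I genes had log2 fold changes from -0.72 (SE 0.57, mt-Nd6) to -0.31 (SE 0.33, mt-Nd5), and mt-Cytb stood at -0.42 (SE 0.40). Their KO and WT tumors overlapped. Without pancreatic WT 1 the median of the 13 mRNAs was -0.22 as deposited and without pancreatic KO 1 it was -0.82, so that these tumors set much of its size. For the rRNAs a difference was not detectable, with mt-Rnr1 at -0.35 (2 SE interval -1.35 to 0.65) and mt-Rnr2 at -0.07 (-1.09 to 0.95).

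**Figure D4:**
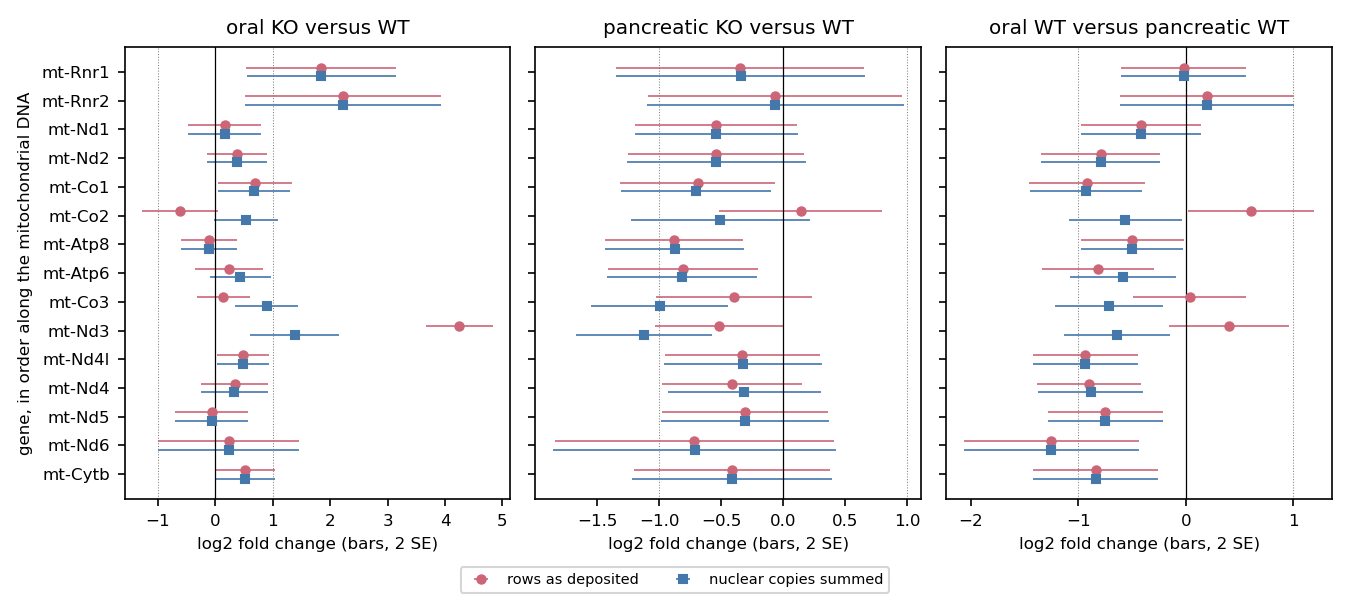
Log2 fold changes (x axes, bars 2 SE) of the 2 rRNAs and 13 mRNAs (y axis) in 3 comparisons, from the rows as deposited (circles) and with nuclear copies summed (squares). mt-Nd3 moves from 4.25 to 1.38 in the oral comparison when its copy is added, and mt-Co2 changes sign in all 3 panels.

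The tRNAs carry amino acids to the mitochondrial ribosome and are shorter than most fragments that the RNA columns and library kit retain. All 22 together gave 121 to 1529 counts per tumor, at most 0.00232% of the total. mt-Ts2 was listed at 0 in all tumors, 7 tRNAs never exceeded 3 counts, and 7 had 10 counts or more in at least 2 tumors. The highest were mt-Tl1, mt-Tm and mt-Tv, which made up 82.3 to 94.7% of the tRNA counts of a tumor, followed by mt-Tp and mt-Tt. mt-Tl1, one of the leucine tRNAs, had 239, 99, 234 and 528 counts in oral WT, 65 and 155 in oral KO, 551, 240, 175 and 138 in pancreatic WT and 736, 305 and 267 in pancreatic KO tumors. mt-Tm, the methionine tRNA, had 135, 50, 44 and 242 counts in oral WT, 34 and 86 in oral KO, 317, 139, 94 and 79 in pancreatic WT, and 640, 244 and 162 in pancreatic KO tumors. Neither gene was called by edgeR in any comparison.

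mt-Tv, the valine tRNA between the rRNA genes, reached 8 to 72 counts. mt-Tp, the proline tRNA, had 18, 17, 21 and 14 counts in pancreatic WT and 20, 11 and 19 in the deeper pancreatic KO libraries. Its log2 fold change was -1.50 (SE 0.33, adjusted p = 0.0881, edgeR), and DESeq2 called it (-1.51, adjusted p = 0.00815). mt-Tt, the threonine tRNA, had 1 to 13 counts. The other tRNAs, with few counts, were not called by edgeR in the filtered fits. With no filter on low counts, mt-Tf, the phenylalanine tRNA, was called negative in the tissue by genotype interaction (adjusted p = 0.0414, edgeR), where 4.04% of all genes were positive and 3.19% negative. It had 0, 0, 1 and 0 counts in oral WT, 1 and 5 in oral KO, 6, 2, 3 and 2 in pancreatic WT and 6, 2 and 1 in pancreatic KO tumors, too few to give a fold.

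Oral WT and pancreatic WT tumors were compared to see how mNC differs by tissue in the presence of Sox2. They are also the reference of the comparisons above, so that the results are not independent. No member of 22 tested was called, where 9.30% of all 23164 genes were higher and 7.24% lower in oral tumors. When the fold threshold was dropped, 4 members had an adjusted p under 0.05, beside 23.7% of all genes, and all 4 were lower in oral tumors. At an unadjusted p under 0.05 there were 8 as deposited and 10 with copies summed, beside 36.8% of all genes in each fit. DESeq2 called mt-Nd6 alone, as lower in oral tumors, where it called 8.65% of all genes lower. With copies summed 0 members were called, where 9.31% of all genes were higher and 7.23% lower, and all 13 mRNAs had negative values (median log2 fold change -0.75, all genes 0.005). As deposited 10 of 13 were, with mt-Co2, mt-Co3 and mt-Nd3 on the other side. Markers of other cells differed between the same tumors. All 6 fibroblast markers were called higher in oral WT tumors (median 2.71), where they summed to 8662 to 19001 CPM against 1118 to 2198 CPM in pancreatic WT tumors, and none was at 0 in either group. Of the 10 squamous markers 5 were called lower in oral WT tumors, and of 4 adipocyte markers tested 1 was. The 7 adipocyte markers summed to 103 to 579 CPM in oral WT and 1485 to 2967 CPM in pancreatic WT tumors. Their part in the mitochondrial values was not tested.

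The 4 genes were mt-Nd4l (-0.93, SE 0.24, adjusted p = 0.0234), mt-Nd4 (-0.90, SE 0.24, adjusted p = 0.0266), mt-Co1 (-0.92, SE 0.27, adjusted p = 0.0365) and mt-Atp6 (-0.82, SE 0.26, adjusted p = 0.0491), all by edgeR. mt-Nd4l and mt-Nd4, membrane subunits of complex I, overlap by 7 bases and are read from 1 mature mRNA. mt-Nd4l held 793, 568, 614 and 776 CPM in oral WT and 1977, 1189, 1134 and 957 CPM in pancreatic WT tumors. mt-Nd4 held 3802, 2743, 2968 and 3585 CPM in oral WT and 9066, 5582, 5180 and 4642 CPM in pancreatic WT tumors. The tissues did not overlap for either gene, and pancreatic WT 1 was the highest in both. mt-Atp6 no longer passed when summed (-0.59, SE 0.25, adjusted p = 0.117, edgeR), whereas the other 3 did.

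mt-Nd6 had the largest difference of this comparison, with 433, 255, 263 and 478 CPM in oral WT and 1601, 685, 671 and 447 CPM in pancreatic WT tumors (-1.25, SE 0.41, adjusted p = 0.0551, edgeR). The ranges met at oral WT 4 and pancreatic WT 4. It was called without either of these tumors (-1.42 and -1.45). Leaving out single tumors also brought mt-Nd4l past the fold threshold (-1.01 without oral WT 1, -1.0002 without pancreatic WT 3 and -1.04 without pancreatic WT 4), as well as mt-Co1 (-1.02 without pancreatic WT 4) and mt-Tp (-1.93 without oral WT 3). In all, 7 members (31.8%) had every oral WT tumor below every pancreatic WT tumor, where 13.8% of all genes tested lay so. Without pancreatic WT 1 the median of the summed mRNAs was -0.42. Scaling by total counts alone moved the median of all genes to 0.27 and that of the summed mRNAs to -0.47. The rRNAs had log2 fold changes of -0.02 (SE 0.29) and 0.20 (SE 0.40). The copies Gm28437 (-1.20, SE 0.30, adjusted p = 0.0193) and Gm29216 (-1.01, SE 0.20, adjusted p = 0.00812) were called, while the other copies tested were not.

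Whether the effect of the genotype differed between tissues was tested with the interaction term in 1 fit of all 13 tumors, where a negative value means a lower log2 fold change in the pancreas. Of 22 members 1 was called, mt-Nd3 (-4.70, SE 0.40, adjusted p = 0.000152, edgeR), where 7.41% of all 25836 genes were called negative and 4.85% positive. With copies summed mt-Nd3 was still called (-2.42, SE 0.48, adjusted p = 0.0118) and mt-Co3 was called too (-1.82, SE 0.36, adjusted p = 0.0119, edgeR), where 7.41% of all genes were called negative and 4.86% positive. Both summed genes were called in 16 of 16 versions of this fit that summed the copies, including those without either oral KO tumor. DESeq2 called 2 members negative as deposited and 4 summed, where it called 7.77% of all genes positive and 10.6% negative in both fits. mt-Co1 summed stood at -1.32 (SE 0.41, adjusted p = 0.05001, edgeR) and was not called, but it was without oral KO 1 (-1.58) or pancreatic WT 4 (-1.38). mt-Atp6 summed was called without pancreatic KO 1 (-1.43) or pancreatic WT 4 (-1.26). All 13 mRNAs had negative values in the summed fit, with a median of -0.86 against 0.03 over all genes. mt-Rnr1 stood at -2.10 (SE 0.88, adjusted p = 0.118, edgeR) and at -0.25 without oral KO 1. It was called without oral KO 2 (-2.88, adjusted p = 0.0417) and without pancreatic KO 1 (-2.98, adjusted p = 0.0426, both by edgeR).

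The nuclear partners of the mitochondrial genes were taken from lists of 164 genes in all. In the oral comparison 2 of 164 were called up and 27 down, where 8.81% of all genes were up and 2.89% down. Their median log2 fold change was -0.55 (all genes -0.003). Of the 6 fibroblast markers 2 were called down, and the list summed to 9344 and 9384 CPM in the oral KO tumors, within the oral WT range. Of 77 nuclear genes of complexes I, III and IV and of ATP synthase, 23 were called down and 1 up, and 72 had negative values. Their median was -0.84. All 77 are called subunits here, although Atpif1, counted with ATP synthase, is an inhibitor of the enzyme. By complex, 14 of 36 fell in complex I, 2 of 9 in complex III, 3 of 16 in complex IV and 4 of 16 in ATP synthase. The nuclear subunits and the mitochondrial mRNAs of the same complexes thus had medians of opposite sign in this comparison, -0.84 and 0.44 summed.

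Named subunits show the size of these differences. Ndufs8, an iron-sulfur subunit of complex I, fell by 1.37 (SE 0.21, adjusted p = 0.019), from 38.4, 46.3, 49.8 and 42.0 CPM in oral WT to 15.1 and 17.2 CPM in oral KO tumors. Ndufb3 (-1.38), Ndufv1 (-1.09) and Ndufa8 (-1.11) of complex I were also down-regulated. Uqcrb (-1.23) and Uqcr10 (-1.06), small subunits of complex III, were as well. Cox5b, a subunit of complex IV, fell by 1.80 (SE 0.26, adjusted p = 0.0189), with 92.2, 101, 131 and 95.3 CPM in oral WT and 33.1 and 23.9 CPM in oral KO tumors. Cox6a1 (-1.08) and Cox4i1 (-1.01) fell too. Cox7a1, the form of its subunit found in muscle and heart, was the subunit that rose (3.52, SE 0.92, adjusted p = 0.0474). It stood at 5.75 CPM in oral KO 1 and 0.624 CPM in oral KO 2 against 0.127 to 0.597 CPM in oral WT tumors. In ATP synthase, Atpif1 (an inhibitor of the enzyme, -1.42), Atp5f1 (-1.07), Atp5j2 (-1.07) and Atp5b (-1.06) fell.

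These calls were lost when oral WT 1 or oral WT 2 was left out, and so were most calls over all genes. Of the 77 subunits 0 were called in either fit, where 27 of 21631 and 17 of 22060 genes were called down. The medians of the subunits were -0.90 and -0.86 in these fits. They were -0.99 without oral KO 1 and -0.73 without oral KO 2. Without oral WT 3 there were 7 down, beside 302 of all genes. Without oral WT 4 there were 22 down and 3 up, beside 739 and 1877 of all genes. When only protein-coding genes were fitted, 0 of 77 were called (median -0.65), where 8 of 16352 genes were called down. Raised muscle markers in both oral KO tumors accompanied these values, and their part was not tested.

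The factors that copy, transcribe and process mitochondrial DNA and RNA moved less, with median log2 fold changes of -0.31, -0.26 and -0.18 in the oral comparison. The counts below stand beside 8.81% of all genes called up and 2.89% called down. In the oral comparison, Top1mt, the mitochondrial topoisomerase, fell (-1.01, adjusted p = 0.0411), 1 of 10 replication genes. Mterf3, a repressor of mitochondrial transcription, rose (1.11, SE 0.20, adjusted p = 0.0229), 1 of 10 transcription genes. Hsd17b10, a subunit of the RNase P that frees tRNA 5′ ends, fell (-1.64, SE 0.27, adjusted p = 0.0203), 1 of 22 genes of RNA processing. Among the tRNA synthetases Kars fell (-1.06, adjusted p = 0.0436), 1 of 19. The prohibitin Phb2 fell (-1.05, adjusted p = 0.0434), 1 of 20 genes of import, porins and chaperones, all of which had negative values (median -0.59). At an unadjusted p under 0.05, 13 of these 20 passed, beside 35.4% of all genes. In the replication, transcription, processing and synthetase lists 3, 2, 5 and 5 passed. Of 9 regulators of biogenesis 0 were called by edgeR, 2 had an unadjusted p under 0.05, and DESeq2 called 0. All these adjusted p-values are from edgeR.

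In the pancreatic comparison 0 of 162 nuclear partners were called by edgeR, where 0.337% of all genes were up and 0.292% down, and 1 was called down by DESeq2, beside 2.94% of all genes. The 75 subunits tested had a median of -0.22, and 64 were negative. At an unadjusted p under 0.05, 35 of the 162 passed, beside 15.9% of all genes. Scaling by total counts alone brought the median of the subunits to -0.10, while that of all genes moved from 0.02 to 0.155. Between the WT tumors of the 2 tissues 4 partners were higher in oral tumors and 0 lower, where 9.30% of all genes were higher and 7.24% lower. These were Cox4i2 (2.53, adjusted p = 0.00256) and Cox6b2 (2.60, adjusted p = 0.00799), alternative forms of complex IV subunits, the leucyl-tRNA synthetase Lars2 (2.18, adjusted p = 0.0292) and Rpusd3 (1.11, adjusted p = 0.0168), a protein of the mitochondrial rRNA-modifying machinery, all by edgeR.

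In the interaction term 23 of 164 partners were called positive and 2 negative, where 4.85% of all genes were positive and 7.41% negative. The positive ones included Atpif1 (1.61), Cox5b (1.65), Ndufs8 (1.27), Ndufa12 (1.69), Uqcrb (1.26), Hspd1 (1.01), a mitochondrial chaperone, and Rexo2 (1.22), an exonuclease of short RNAs. The negative ones were Cox7a1 (-5.11) and Mterf3 (-1.02). mt-Nd3 and mt-Co3 had negative values in the same term.

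**Figure D5:**
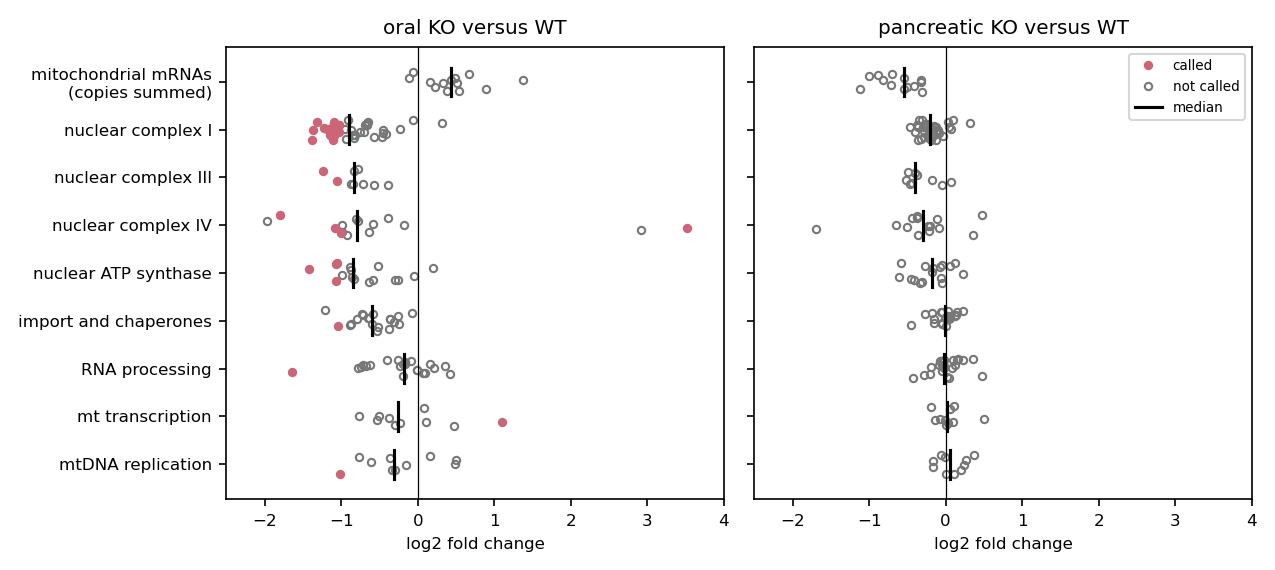
Log2 fold changes (x axes) of the 13 mitochondrial mRNAs with copies summed and of 8 lists of nuclear partners (y axis) in the oral (left) and pancreatic (right) comparison, with 1 point per gene, filled where called, and lines for medians. In the oral panel the mRNAs have a median of 0.44 and nuclear complex I one of -0.89.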

How the data were processed

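Total RNA of 13 tumors was depleted of rRNA and sequenced. The authors trimmed reads (Trim Galore 0.6.10, FastQC 0.12.1), quantified them with Kallisto 0.50.0 on GENCODE M23 transcripts, strand-specifically, and summed them per gene with tximport. They deposited estimated counts, not normalized, and 27.3% of the values were not whole. Kallisto divides reads that fit several genes by an estimate, so rows of identical genes are uncertain. M21 supplied symbols, positions and sequences here, and members and gene lists were chosen with earlier results of these data known. Counts were rounded and fitted with edgeR 4.0.16 in R 4.3.3 (TMM, a minimum of 10 counts in 2 or more tumors, robust quasi-likelihood test, Benjamini-Hochberg over all genes). DESeq2 1.42.0 was an alternative. The method was also run on simulated counts. These modelled neither reads shared between a gene and its copy nor a library that stands apart like oral KO 1. A copy shared at least 50 sense 31-base sequences with a member. Named were all mRNAs and rRNAs, the 5 highest tRNAs, the 5 highest copies, and up to 4 called genes per list with the smallest adjusted p. Tumors were not stated to be from separate mice, so p-values measure spread between tumors. CPM used TMM factors over all 13 tumors. Other copies, and genes named beyond this rule (mt-Ts2, Gm10222, Gm28439 and Sox2 as label check), were added for the division of reads.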

Additional observations from a re-analysis of the deposited data

Results flagged for a closer look

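Pancreatic WT 1 stood far above the other 3 pancreatic WT tumors by Dixon's criterion in several measures. Its mRNA share was 9.20%, its rRNA share 0.8291%, its mt-Co1 level 37133 CPM (38246 CPM with copies) and its mt-Nd5 level 8093 CPM (8094 CPM with copies). In all, 6 of 56 sets of 4 WT tumors were so marked, where chance marks about 1 in 20, and the measures share reads and are not independent. The library's protein-coding share (85.1%) and summed squamous markers (14535 CPM) were the lowest of the 4 pancreatic WT tumors, and its leukocyte markers (267 CPM) the highest. Their part was not tested.

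By the interaction term the difference between KO and WT tumors varied with tissue for mt-Nd3, at -4.70 as deposited and -2.42 with copies summed. For mt-Co3 the term was -1.82 with copies summed. The mt-Nd3 row kept 41.8 and 95.6% of the summed count in the oral KO tumors and at most 8.74% elsewhere. Depth and muscle markers also went with genotype in the oral tumors. With all libraries thinned at random to the smallest, the mt-Nd3 row as deposited stood at 4.32 in the oral comparison (adjusted p = 0.00375, edgeR). In the interaction it then stood at -4.83 (adjusted p = 0.000268, edgeR). The summed rows were not fitted after thinning, and the part of the muscle markers was not tested.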

How the results depend on the processing

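Over all alternatives, 1645 of 1732 log2 fold changes of single genes kept their direction and side of the threshold, 51 changed sign, 34 gained a call and 2 lost one, and 249 of 285 counts and shares stayed close. The cause of each change was not tested. Summing the copies took the oral count from 1 to 0 and moved mt-Co2 to 0.54 (oral), -0.51 (pancreas), -0.56 (WT tissues) and -0.98 (interaction), and mt-Co3 and mt-Nd3 to -0.72 and -0.64 between WT tissues. Copies with at least 10 shared sequences gave the same values. DESeq2, with and without apeglm shrinkage, called 3 members up in the oral comparison, 1 down in the pancreas and 1 down between WT tissues. Without shrinkage it called 11.7% of all genes up, 2.94% down and 8.65% down in these comparisons. After summing, DESeq2 called 3, 3, 1 and, for the interaction, 4. In the same directions it then called 11.6, 2.94, 8.65 and 10.6% of all genes. The interaction count was 2 under DESeq2, with at least 10 counts in every tumor, with no count filter and with copies summed. In these fits 10.6%, 1617 of 15718, 3.19% and 7.41% of all genes were called negative. With protein-coding genes only, oral mt-Atp8 and mt-Nd5 stood at 0.082 and 0.13. mt-Nd5 stood at 0.038 with 10 counts in every tumor and at 0.0022 after thinning to the smallest library. Scaling by total counts gave mt-Rnr2 0.043 in the pancreas and mt-Rnr1 0.25 between WT tissues. With copies the mean mRNA share of oral WT tumors was 5.19%, and over protein-coding counts the tRNA share of oral KO tumors was 0.00173%.

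With 1 tumor left out in turn, oral values ranged from -0.0056 to 2.64 (mt-Rnr1), -0.21 to 3.09 (mt-Rnr2), -0.047 to 0.36 (mt-Nd1), -0.20 to 0.0023 (mt-Atp8), -0.064 to 0.49 (mt-Atp6), -0.0036 to 0.63 (mt-Nd4, summed -0.018 to 0.62), -0.50 to 0.28 (mt-Nd5, also summed) and -1.39 to 0.98 (mt-Nd6). Oral calls with copies summed ranged from 0 to 1. Pancreatic values ranged from -1.21 to 0.0023 (mt-Rnr1), -0.94 to 0.31 (mt-Rnr2) and -0.21 to 0.42 (mt-Co2). WT tissue values ranged from -0.24 to 0.24 (mt-Rnr1), -0.24 to 0.47 (mt-Rnr2) and -0.11 to 0.37 (mt-Co3), with 0 to 3 members called down in both fits, 3 of them without pancreatic WT 4. Interaction values ranged from -3.08 to 0.23 (mt-Rnr2), -0.52 to 0.29 (mt-Nd5, also summed) and -1.60 to 0.78 (mt-Nd6), with 1 to 2 called, and 2 to 4 summed. In the summed oral fits without 1 of the WT tumors, 18 of 22053 to 1876 of 21517 genes were called up. Without pancreatic WT 4, 1557 of 22996 genes were called lower between WT tissues, and 1556 of 22989 with copies summed. Without pancreatic KO 1, 2 members were called negative in the interaction, beside 1382 of 25256 genes. With copies summed these were 4 members and 1383 of 25249 genes. Where 1 oral KO tumor was left, it was assumed to vary like the WT tumors.

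With the tumor number as a replicate block, the counts of calls were the same (1 up in the oral comparison, 0 in the pancreas and between WT tissues, 1 down in the interaction). mt-Atp8, mt-Nd5 and mt-Nd6 changed sign in the oral comparison (0.051, 0.0052 and -0.088). Same-numbered tumors had correlations of their deviations from -0.17 to 0.43, the highest being that of pancreatic WT 1 and KO 1. With the block, 189 of all genes were called up and 401 down in the pancreas, against 83 and 72 without it. mt-Atp8 then stood at -0.97 (adjusted p = 0.0376, edgeR). Whether same-numbered tumors shared more than a number was not tested. Summed fits by total counts, by DESeq2 and with tumors left out were chosen after seeing the data.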
